A study of Mus musculus with 14 samples.

Results

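The H3K9me2 regions standing alone are stretches of chromatin at which the histone mark H3K9me2 was listed as different between sham-operated and pressure-loaded mouse hearts, while neither the enzyme G9a nor the mark H3K27me3 was listed as different at the same bases. They were chosen as the regions of the authors' deposited H3K9me2 table on chromosomes 1 to 19 that share no base with any region of the deposited G9a table and none with any region of the deposited H3K27me3 table. There were 89511 of them among the 243842 H3K9me2 regions on those chromosomes, or 36.71%, and among 1186058 regions in the 3 tables. Of the other H3K9me2 regions, 78130 overlapped H3K27me3 regions, 26981 overlapped G9a regions and 49220 overlapped both kinds. Standing alone is a statement about lists of differences: a region equally marked in both conditions is not listed, and one with low values may not be. The rule therefore does not show that G9a or H3K27me3 was absent.

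The study used chromatin immunoprecipitation with sequencing on cells enriched for cardiomyocytes, the contractile cells of the heart, from mice of strain C57BL/6J. One group had a sham operation, which the labels enter as no treatment, and the other had transverse aortic constriction, in which the aorta is narrowed by surgery and the left ventricle pumps against a higher pressure, for 1 week. Each antibody, against G9a, H3K9me2 or H3K27me3, was used on 2 libraries per group, and each group had 1 input library, which gave 14 libraries in all. No genetic change is named in the labels, and the sources used here give neither age nor sex. The cells were enriched, not pure, and a change in which cells were recovered and a change within a cell cannot be told apart. With 2 libraries per group, p-values measure the spread between these libraries only.

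H3K9me2 is histone H3 dimethylated on lysine 9, a mark placed by the paired methyltransferases G9a (gene Ehmt2) and GLP (gene Ehmt1) and removed by demethylases of the Kdm3 and Kdm4 families. It is typical of silent chromatin, covers wide domains of gene-poor sequence that often lie at the nuclear lamina, and is usually low at active promoters. H3K27me3, placed by Polycomb complexes, marks another kind of silent chromatin, often at CpG-rich promoters of developmental genes.

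Each deposited line has 4 whole-number values, those of 2 libraries followed by those of 2 more, called here the first and the second pair, and the authors' p. The table does not say which pair is sham, so differences are described as higher in the first or in the second pair, with the order of the values taken to be the same in every line. Library sums over all H3K9me2 regions on chromosomes 1 to 19 ran from 22058074 to 23869317 in the authors' deposited table. Regions standing alone held between 31.41% and 32.84% of each library's sum. Such sums leave out all unlisted sequence, and the sources used here give no sequencing depth.

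Promoters were read first, because the mark is known for silent promoters and because sequence was at hand for them. Of 31396 promoter windows of RefSeq genes (assembly GRCm38.p6, 250 bases before to 50 after the start), 157 lay whole inside a region standing alone, 86 of protein-coding genes and 71 of long noncoding RNAs. Among them were 17 promoters of olfactory receptors, which detect odours in the nose, and 4 of vomeronasal receptors, which detect pheromones. These are large families, with 1104 and 352 of the 20665 protein-coding genes. No count of their promoters over all windows is given here, so nothing is read from the 17 and the 4. For 6 genes of the 157 promoters, the 250 bases before an annotated start are shown because they run from no CpG at all to a CpG-rich stretch. Capitals mark each CpG, the dinucleotide at which mammalian DNA is methylated. These genes were chosen after their values were seen.
Colec11: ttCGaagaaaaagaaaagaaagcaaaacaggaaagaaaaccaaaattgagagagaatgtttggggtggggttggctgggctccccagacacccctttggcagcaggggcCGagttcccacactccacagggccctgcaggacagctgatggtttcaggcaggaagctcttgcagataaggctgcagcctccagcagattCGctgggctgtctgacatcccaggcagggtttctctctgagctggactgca
Slc22a22: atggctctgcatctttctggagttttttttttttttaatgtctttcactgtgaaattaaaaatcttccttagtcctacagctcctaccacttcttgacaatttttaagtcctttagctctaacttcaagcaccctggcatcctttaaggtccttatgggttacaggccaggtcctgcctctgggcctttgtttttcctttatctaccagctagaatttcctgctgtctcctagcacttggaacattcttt
Ptprg: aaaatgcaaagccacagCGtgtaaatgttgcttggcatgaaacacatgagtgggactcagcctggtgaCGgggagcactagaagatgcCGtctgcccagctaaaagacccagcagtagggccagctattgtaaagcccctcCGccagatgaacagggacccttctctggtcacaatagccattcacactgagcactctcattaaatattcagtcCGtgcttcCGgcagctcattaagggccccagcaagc
Olfr351: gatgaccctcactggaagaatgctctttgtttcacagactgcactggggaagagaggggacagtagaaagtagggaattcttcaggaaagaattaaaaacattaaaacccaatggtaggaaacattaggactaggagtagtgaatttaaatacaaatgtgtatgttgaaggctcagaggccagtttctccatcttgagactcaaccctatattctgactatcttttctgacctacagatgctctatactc
Olfr1364: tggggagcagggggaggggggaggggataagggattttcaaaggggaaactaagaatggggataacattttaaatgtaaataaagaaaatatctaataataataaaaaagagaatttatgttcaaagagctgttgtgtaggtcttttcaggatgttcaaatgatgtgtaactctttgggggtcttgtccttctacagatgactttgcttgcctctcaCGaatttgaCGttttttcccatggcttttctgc
Sycp1: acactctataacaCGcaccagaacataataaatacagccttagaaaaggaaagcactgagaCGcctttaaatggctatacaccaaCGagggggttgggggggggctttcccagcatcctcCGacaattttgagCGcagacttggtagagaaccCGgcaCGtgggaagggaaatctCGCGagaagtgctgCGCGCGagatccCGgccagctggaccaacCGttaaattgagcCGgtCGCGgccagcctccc

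The sequence before Colec11, which encodes a secreted lectin of the complement system, is chr12:28623331-28623580 on the minus strand and holds 3 CpG. Its region was listed in the authors' deposited table at 84 and 335 for the first pair versus 45 and 31 for the second, so the pairs did not overlap, although the first-pair libraries were far apart. Slc22a22, an organic anion transporter gene (chr15:57477626-57477875, minus strand, 0 CpG), had 59 and 162 versus 40 and 5 by the authors' deposited table. Ptprg, a receptor tyrosine phosphatase gene, has here an internal start, deep inside the gene (chr14:12189693-12189942, plus strand, 6 CpG), and its region had 221 and 93 versus 86 and 28 by the authors' deposited table. All 3 were listed higher in the first pair without overlap of the pairs, and in each the first-pair libraries lay far apart.

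The second pair was higher at the other 3 promoters. The olfactory receptor gene Olfr351 (chr2:36860347-36860596, minus strand, 0 CpG) had 110 and 119 versus 225 and 329 by the authors' deposited table. Olfr1364, another olfactory receptor gene (chr13:21574455-21574704, minus strand, 2 CpG), had 40 and 84 versus 165 and 197 by the authors' deposited table. Sycp1, which encodes a protein of the synaptonemal complex of meiosis (chr3:102936101-102936350, minus strand), held 17 CpG, many of them in runs. Its region had 92 and 138 versus 265 and 262 by the authors' deposited table, with no overlap of the pairs.

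Over all 157 promoters, CpG was scarce. The median G + C was 46.0%, against 53.0% over all promoter windows, and the median number of CpG per window was 2 against 7. Promoters inside other H3K9me2 regions were also below all windows. Those in regions overlapping H3K27me3 had medians of 48.83% and 3 CpG, those overlapping G9a 48.67% and 3, and those overlapping both 52.67% and 5. Windows with at least 55% G + C and an observed over expected CpG ratio of at least 0.65, a criterion for CpG islands, made up 4.459% (7 of 157), against 28.66% of all windows. The 7 windows include those of Sycp1, of Pus3, a pseudouridine synthase gene with the most CpG (37 in the 250 bases before its start), of the heat shock factor gene Hsf5 and of Neto2, an auxiliary protein of glutamate receptors. For promoters inside H3K9me2 regions that overlapped H3K27me3 regions, the share was 7.317%, for those overlapping G9a regions 4.054%, and for those overlapping both 14.33%. The sequence TATAAA, searched on both strands, was found in 27.39% of the 157 windows and in 13.62% of all windows. CCAAT was found in 45.22% against 37.3%, and GGGCGG, the GC box, in 7.643% against 35.98%, each searched on both strands. For promoters in regions overlapping H3K27me3, G9a and both, in that order, TATAAA was found in 18.29%, 9.459% and 15.58%. CCAAT was found in 37.4%, 35.14% and 37.69% of them, and GGGCGG in 16.26%, 10.81% and 29.6%. Base composition moves with these shares, and its part in them was not tested. The plot of base composition shows the shift of the whole distribution.

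**Figure D1:**
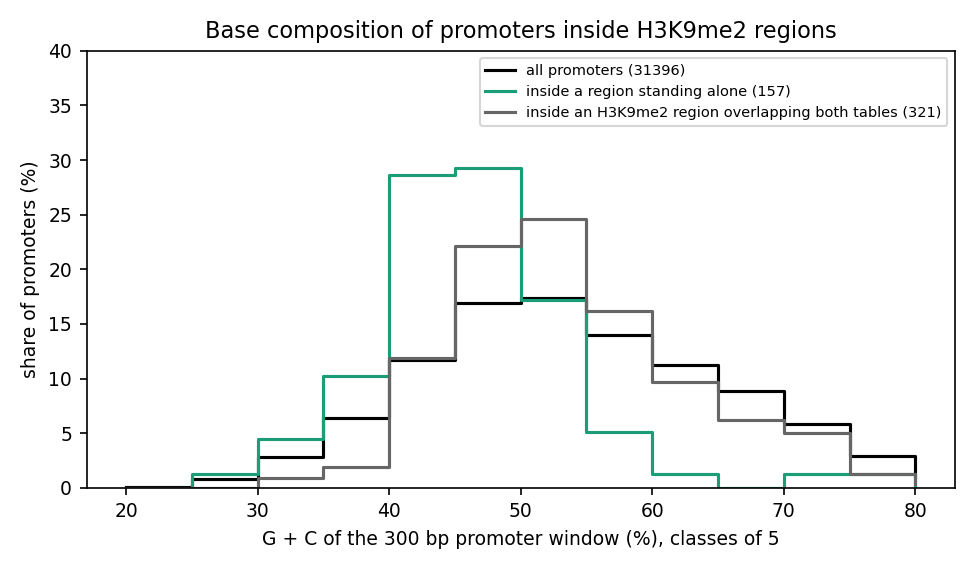
Share of promoters (y axis, percent) by G + C of the 300 bp promoter window (x axis, percent, classes of 5), for all promoters (black), those whole inside a region standing alone (green) and those inside an H3K9me2 region that overlaps both other tables (grey). The green line lies to the left, with a median of 46.0% against 53.0% for all and 52.67% for the grey line. Promoters in regions overlapping H3K27me3 alone or G9a alone, not drawn, had medians of 48.83% and 48.67%.

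The regions standing alone were small and only moderately different between the pairs. Their median length was 550 bp (quartiles 450 and 700, longest 3050), against 650 to 700 bp in the other 3 kinds of H3K9me2 region. The rule favours short regions, which have less room to overlap: 45.93% of regions of 350 to 450 bp stood alone, 39.25% of those of 500 to 650 bp, 32.01% of those of 700 to 950 bp and 20.76% of those of 1000 bp and more. Per length, the median value was 128.5 per kb, averaged over the 4 libraries, against 132.1 to 135.0 in the other kinds. In each of the 3 tables the lowest listed mean was 105.0 per kb, and no deposited p was above 0.009996. These medians lie close to that lowest listed value, so their likeness says little about the mark. In all, regions standing alone covered 54.39 Mb of the 163.8 Mb of H3K9me2 regions.

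The first pair was higher at 50473 of them and the second at 39038. The second-pair share was 43.61%, beside 44.3% over the whole H3K9me2 table, and between 44.01% and 45.71% in the other 3 kinds. Regions higher in the first pair had medians of 98 and 94 versus 40 and 44 by the authors' deposited table, and their median log2 difference of pair means (second over first, pseudocount 1) was -1.05. Regions higher in the second pair had medians of 51 and 46 versus 102 and 104 by the authors' deposited table, and a median log2 difference of 0.99. The typical listed difference was thus close to a doubling in either direction. Differences over 4-fold were rarer: 4478 first-pair regions (8.872%, beside 7.71% of all first-pair H3K9me2 regions) and 2218 second-pair regions (5.682%, beside 4.80%). The rule used this contrast through the list itself, so these sizes are a description.

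Libraries of one pair also differed from each other. Within a pair, the median absolute log2 difference of the libraries was 0.72 in the first and 0.80 in the second, and between the pair means it was 1.02. The difference between pairs exceeded both differences within pairs at 34978 of the 89511 regions (39.08%), beside 40.23% over the table. Both values of the higher pair lay above both of the other at 60462 (67.55%), beside 67.9% over the table. At 4559 regions (5.093%, beside 3.85% over the table) at least 1 library was listed at 0. At 75 a whole pair was, 13 of them in the first pair and 62 in the second. Over the table a whole pair was at 161, 25 of them in the first pair and 136 in the second.

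With limma on log2(value + 1), 0 of the 89511 regions standing alone passed an adjusted p of 0.05 (Benjamini-Hochberg over all 245088 H3K9me2 regions), beside 0.000408% of the table, a single region that overlapped H3K27me3. The smallest adjusted p by limma among regions standing alone was 0.383. At an unadjusted p under 0.05, limma called 8871 (9.91%), beside 11.8% over the table. An exact permutation test of 1 region with 2 libraries per pair cannot go below 0.333, two-sided. The deposited p of at most 0.0001, that is a -log10 p of at least 4, was reached by 48789 regions (54.51%), beside 56.6%. No region standing alone is called different between sham and constriction by the replicate test, and what follows describes where the listed regions lie and their values.

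Many of the regions stood alone by a narrow margin. The median distance to the nearest G9a region was 2850 bp, to the nearest H3K27me3 region 1800 bp and to the nearer of both 1100 bp. A region of another table lay within 1000 bp of 42620 (47.61%), and 2798 touched one without sharing a base. Only 2922 (3.264%) had none within 10 kb. Borders follow a grid of 50 bp, and 3113 regions fell outside the set through a single 50 bp step of overlap. Just inside, chr10:98686801-98687550, which adjoins an H3K27me3 region, had 196 and 226 versus 8 and 11 by the authors' deposited table. A region within the membrane peptidase gene Naaladl2 (chr3:24289001-24290100) had 53 and 27 versus 209 and 391 by the authors' deposited table. Just outside, chr2:43522151-43523100 had 298 and 176 versus 19 and 22, by the authors' deposited table, and overlapped a G9a region by 50 bp. Many regions tie at this border, and those shown have very small deposited p (-log10 p of 47.65, 46.9 and 44.82). Their values describe these regions only, not the border as a whole.

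Regions standing alone were commonest where gene midpoints are few. Each gene was counted only in the 1 Mb bin of its midpoint, so a bin counted without genes can still lie inside a long gene. In bins without the midpoint of a protein-coding gene, a median of 63 regions stood alone per bin. The median was lower in each class of more genes, down to 16 in bins with over 20 genes. H3K9me2 regions of all kinds fell likewise, from a mean of 140.6 per bin without gene midpoints to 74.0 in bins with over 20. The share was lower there too: 44.76% of the H3K9me2 regions in bins without gene midpoints stood alone, 30.26% in bins with 11 to 20 genes and 30.42% in bins with over 20. Across the 2413 bins, Spearman's rank correlation between regions standing alone and genes was -0.63, given as a description since bins share libraries, mappability and base composition. By chromosome, the share ran from 29.51% on chromosome 11, with 13.53 genes per Mb, to 40.45% on chromosome 16, with 7.14. The bin with most such regions, from 58 to 59 Mb of chromosome 17, held 124 of them and includes part of the neurexin family gene Cntnap5c. The next, from 113 Mb of chromosome 1, held 120 and no gene midpoint.

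**Figure D2:**
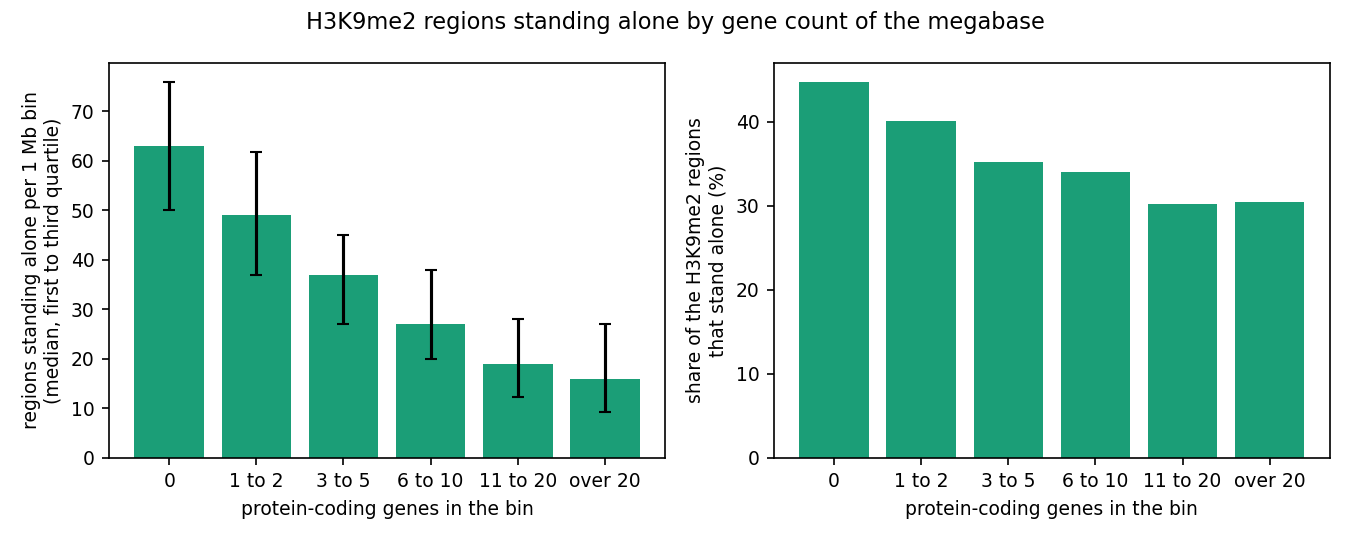
Regions standing alone per 1 Mb bin (left, bars are medians over bins, error bars run between the quartiles) and the share of H3K9me2 regions that stand alone (right, percent), by the number of protein-coding genes with their midpoint in the bin (x axis). The median is 63 in bins with no gene midpoint and 16 in bins with over 20, and the share 44.76% and 30.42%. A bin with no gene midpoint can still lie inside a long gene.

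Yet, of the regions standing alone, more lay inside genes than of the other H3K9me2 regions. Their midpoints lay within 2500 bp of an annotated gene end in 3.947% (3533), elsewhere in a gene body in 32.45% (29046) and between genes in 63.6% (56932). The gene body share was 25.37% for regions overlapping H3K27me3, 28.07% for those overlapping G9a and 26.94% for those overlapping both. It was also higher within each length class: among regions of 350 to 450 bp it was 34.04%, against 26.79% to 29.87%. Of those standing alone, 15.12% lay over 500 kb from any protein-coding gene, against 7.109% to 12.73% of the other kinds. Both shares were the highest of the 4 kinds. None of these differences was tested, since regions are not replicates.

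Inside genes, H3K9me2 regions of all kinds were denser in long ones, those standing alone included. Of 20665 protein-coding genes, 6801 (32.9%) held a midpoint of a region standing alone, and their density was 18.03 per Mb in genes under 50 kb and 48.77 per Mb in genes over 500 kb. The share of H3K9me2 regions standing alone varied less, from 34.44% under 50 kb to 43.14% at 100 to 200 kb and 41.9% over 500 kb. Dpp10, which encodes an accessory subunit of potassium channels, held most, 163 of its 303 H3K9me2 regions. It was followed by Ctnna3, alpha-T-catenin of the intercalated disc that joins heart muscle cells, with 132 of 150, Lrp1b, a lipoprotein receptor relative, with 131 of 245, and Nrg3, a neuregulin ligand, with 126 of 225. These and the genes of the next paragraphs were chosen for their counts or their known role in muscle, after the values were seen.

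Genes differed widely in the share of their H3K9me2 regions that stood alone. Among the 1086 genes with at least 15 H3K9me2 regions the median share was 35.64%. In 5 genes every region stood alone: Atxn1 (16 regions), encoding ataxin-1, Phkb (15), a subunit of phosphorylase kinase, Rasal2 (19), a Ras GTPase-activating protein, Ror1 (20), a Wnt receptor, and Srgap2 (15). In 42 genes none did, among them Rbfox3 (0 of 53), a neuronal splicing factor, Shank2 (0 of 52), a scaffold of synapses, and Grik4 (0 of 44), a glutamate receptor subunit. Grik4 held 191 G9a and 104 H3K27me3 regions in the authors' deposited tables.

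At least 80% of the regions stood alone in 114 of the 1086 genes, several of which have a part in heart muscle. Besides Ctnna3 (88.0%), they were 92 of 104 (88.46%) in Prkg1, the cyclic GMP-dependent protein kinase, 75 of 89 (84.27%) in Erbb4, a neuregulin receptor, and 37 of 43 (86.05%) in Lama2, the laminin subunit of muscle basement membrane. The receptor tyrosine phosphatase genes Ptprk (34 of 37), Ptprm (40 of 45) and Ptprg (36 of 41) had similar shares, as did Nckap5 (66 of 74), Klf12, a transcription factor gene (33 of 35), and Plxna4, a plexin gene of axon guidance (46 of 52). The longest region standing alone, 3050 bp, lay in Ptprm (chr17:67142801-67145850), with 303 and 390 versus 732 and 917 by the authors' deposited table and no overlap of the pairs. The H3K27me3 regions listed in these genes numbered 49 in Prkg1, 12 in Ctnna3, 11 in Erbb4 and 0 in Ptprm, in the authors' deposited tables. The rule used those lists, so this is not an independent finding about the share.

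The map of regions along Ctnna3 and Csmd1, a complement-control membrane protein gene of like length, shows the contrast. In Csmd1, 97 of 294 H3K9me2 regions stood alone and 587 H3K27me3 regions were listed. Within Ctnna3 the directions were mixed: 63 regions standing alone were higher in the first pair and 69 in the second, and over the 132 regions the authors' deposited table sums to 11881 and 10956 versus 11751 and 12013. Summed over the gene, the 2 pairs overlapped. Erbb4 was split likewise, 38 against 37, and sums to 6297 and 6004 versus 5865 and 6979 by the authors' deposited table.

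**Figure D3:**
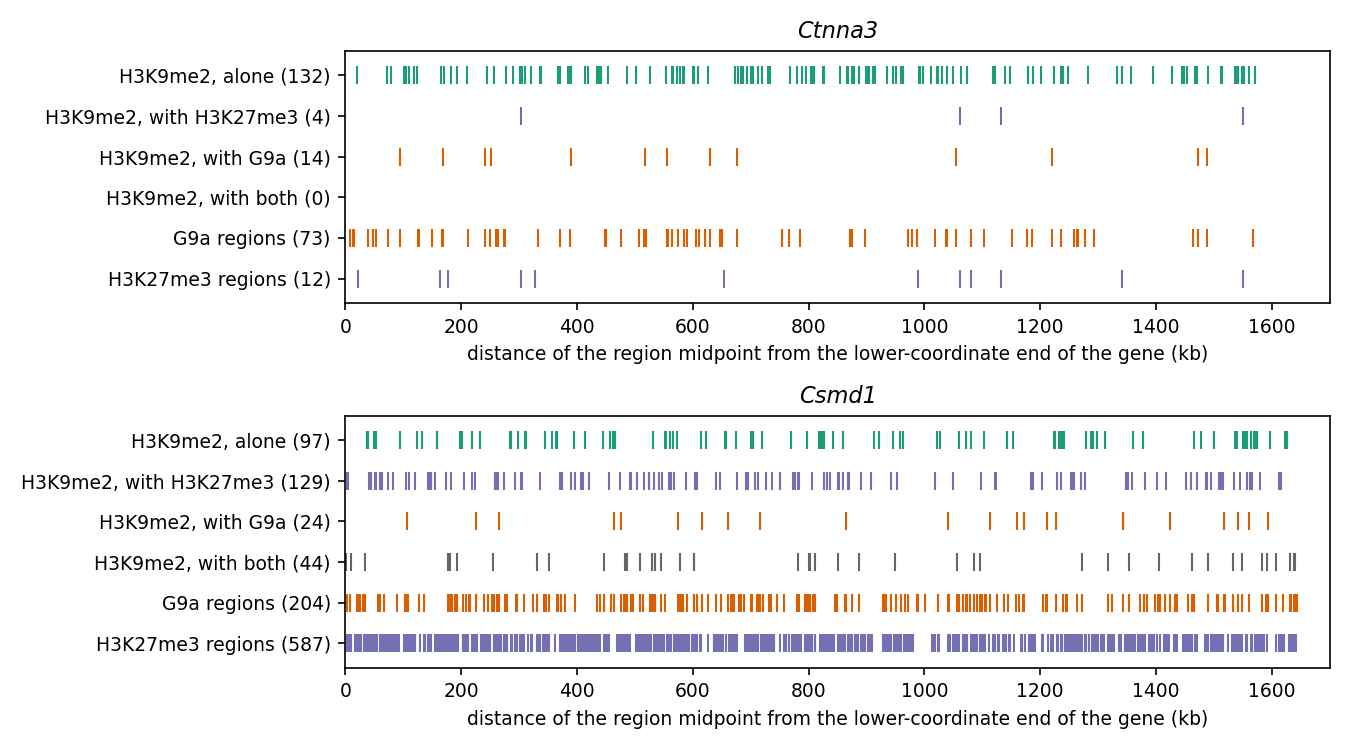
Midpoints of listed regions (ticks) along Ctnna3 (top) and Csmd1 (bottom), by distance from the lower-coordinate end of the gene (x axis, kb). Rows give the 4 kinds of H3K9me2 region and all G9a and H3K27me3 regions, with their number in brackets; 132 of 150 H3K9me2 regions stand alone in Ctnna3 and 97 of 294 in Csmd1.

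Grouped by function, most H3K9me2 regions in the gene bodies of the heart muscle lists stood alone. Over all protein-coding genes 40.81% of the H3K9me2 regions in gene bodies stood alone. For calcium handling and ion channel genes it was 74.18% (204 of 275), with 102 higher in each pair. Triadin (Trdn), which anchors the calcium release complex, had 24 of 29, Cacna2d1, a calcium channel subunit gene, 25 of 29, Cacnb2, the beta subunit, 21 of 23, Slc8a1, the sodium-calcium exchanger, 8 of 8, and Kcnd2, a potassium channel gene, 26 of 36. In Trdn, 9 were higher in the first pair and 15 in the second, the latter with median values of 58 and 46 versus 110 and 148 by the authors' deposited table.

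The other heart muscle lists gave like shares from few regions. The share was 68.12% (47 of 69) for fatty acid oxidation genes, where 40 of the 47 lay in Ppargc1a, the coactivator of mitochondrial genes. It was 66.67% (18 of 27) for sarcomere genes, where 14 lay in Nebl, nebulette of the Z-disc. For cardiac transcription factors it was 66.04% (35 of 53), 29 of them in Esrrg, an estrogen-related receptor, 5 of 5 in Mef2a and 1 of 1 in Srf. The other 6 factors with an H3K9me2 region had none alone: Tbx5 and Isl1 0 of 3 each, and Gata5, Mef2c, Hand1 and Myocd 0 of 1 each. For fetal and stress genes it was 65.22% (15 of 23), and for adrenergic receptors 12 of 17. The first 3 of these lists thus rest mainly on 1 long gene each. Myh6, Tnnt2, Tnni3, Actc1 and Actn2, defining genes of the cardiomyocyte sarcomere, had no H3K9me2 region in their bodies, and Ryr2, the calcium release channel, had 6, of which 4 stood alone. Listed differences do not measure the level of the mark, so they do not check the cell type.

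Among the enzymes and readers of H3K9 methylation 36 of 53 stood alone (67.92%). Ehmt1, which encodes the partner of G9a, had 5 of 5, Kdm4c, a demethylase gene, 9 of 11, and Cdyl, a chromodomain reader, 7 of 12. At Ehmt2, the gene of G9a itself, 0 of 3 stood alone.

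Lists of other cell types lay near or below the share of all genes. Synaptic adhesion and axon guidance genes had 43.99% (2087 of 4744), and 42.56% without Ctnna3, which is on this list although it also acts in heart muscle. For neurotransmitter receptors it was 34.41% (427 of 1241). Fibroblast markers had 37.5% (21 of 56), smooth muscle and pericyte markers 8 of 20, leukocyte markers 21.67% (13 of 60) and endothelial markers 21.59% (19 of 88). Where only regions of the other tables with a -log10 p of at least 4 removed a region, the share over all genes was 51.82%, and leukocyte markers had 40%, fibroblast markers 53.57% and synaptic genes 57.12%. H3K27me3 regions were listed at 2.101 per 100 kb in bodies of calcium handling and ion channel genes, against 17.42 over all genes, 31.23 for endothelial and 34.51 for leukocyte markers. Since H3K27me3 regions remove a region from the set, the 2 quantities are tied, and nothing particular to a list is read from them. Per length of gene, regions standing alone in the calcium list had a density of 3.484 per 100 kb, beside 3.099 over all genes, 5.389 in synaptic adhesion genes and 1.309 in sarcomere genes. Glycolysis genes had 2 of 7. The gene families in clusters ranged from 38.24% for defensins and 38.96% for olfactory receptors over 39.82% for serpins and 44.92% for zinc finger protein genes to 47.35% for vomeronasal receptors.

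**Figure D4:**
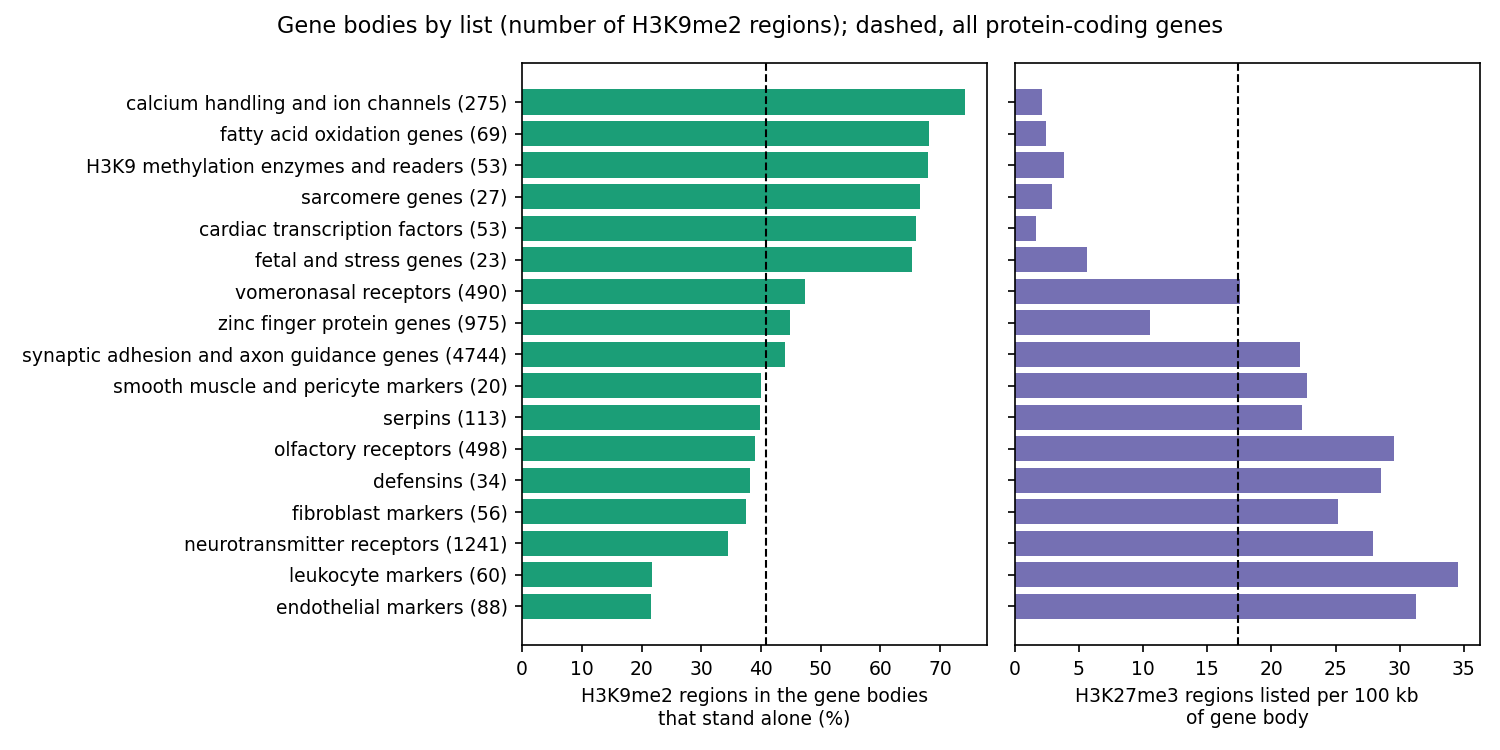
Share of H3K9me2 regions in gene bodies that stand alone (left, percent) and H3K27me3 regions listed per 100 kb of gene body (right), by gene list with at least 20 H3K9me2 regions, whose number is in brackets. Dashed lines give all protein-coding genes (40.81% and 17.42); the heart muscle lists and the H3K9 enzymes lie above the line on the left and below it on the right.

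Near gene ends, regions standing alone were found at 3228 of 20665 protein-coding genes (15.6%), higher in the first pair at 9.77% and in the second at 7.22%. The gene families in clusters had more: olfactory receptors 365 of 1104 (33.06%), vomeronasal receptors 124 of 352 (35.23%), defensins 22 of 70, serpins 18 of 62 and zinc finger protein genes 100 of 388. Neighbouring genes of a cluster share regions, and the windows of short genes overlap. Lists of heart muscle genes lay nearer the background: calcium handling 4 of 29, fatty acid oxidation 5 of 25, cardiac transcription factors 2 of 21, fetal and stress genes 2 of 19 and sarcomere genes 1 of 22. No gene of the adrenergic receptor (9), glycolysis (19) or smooth muscle (10) lists had one. Synaptic adhesion genes had 8 of 30, neurotransmitter receptors 4 of 25, H3K9 enzymes and readers 5 of 26, leukocyte markers 3 of 15, fibroblast markers 2 of 14 and endothelial markers 1 of 15.

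The first-pair regions near gene ends with the smallest deposited p had high values in one pair and low ones in the other. Tmem241, a membrane protein gene, had 105 and 237 versus 5 and 3 by the authors' deposited table. Slc13a4, a sulfate transporter gene (chr6:35307201-35308000, 526 bp from a start site), had 158 and 223 versus 17 and 6 by the authors' deposited table (log2 -3.94). At Klhl32 (chr4:24848951-24849500) the authors' deposited table listed 120 and 147 versus 0 and 5. In these genes the lower value of the first pair was well above the higher of the second. Atp13a2, a lysosomal transport ATPase gene, had 163 and 266 versus 37 and 1 by the authors' deposited table. Zfp978, Pramel45 and Tmppe had log2 differences of -4.45, -3.69 and -4.01 by the authors' deposited table.

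Second-pair regions near gene ends were led by Ccl8, a chemokine gene that draws monocytes (chr11:82116301-82117050, 1490 bp from its start site), with 12 and 11 versus 180 and 217 by the authors' deposited table. Cep97, a centriole protein gene (chr16:55935051-55935650, 502 bp from a start site), had 7 and 4 versus 118 and 191 by the authors' deposited table. Cmya5, which encodes myospryn of striated muscle (chr13:93041301-93042050), had 36 and 11 versus 210 and 206 by the authors' deposited table, and the nearest H3K27me3 region lay 21950 bp away. In the 3 regions both second-pair libraries exceeded both first-pair ones. The olfactory receptor genes Olfr1265 and Olfr934, Zfp825, Bpifb9a and Aldoart1 completed the 8, with log2 differences of 3.53, 2.32, 2.97, 3.26 and 1.66 by the authors' deposited table.

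**Figure D5:**
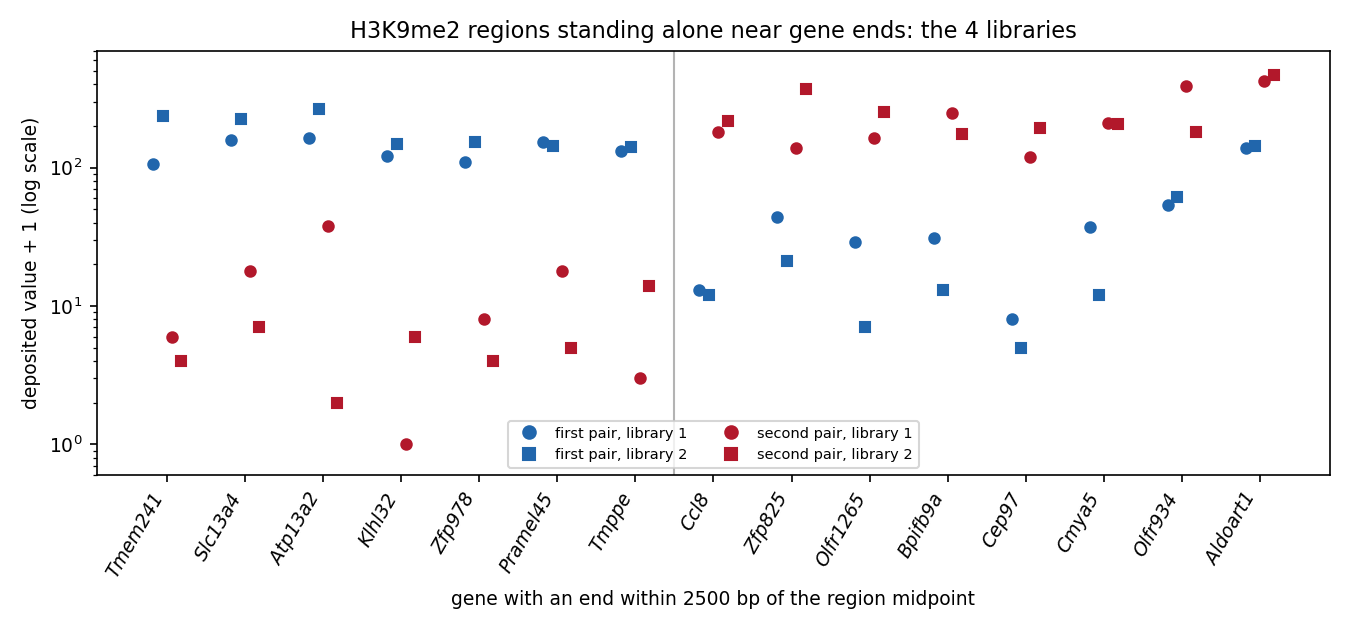
Deposited values plus 1 (y axis, log scale) of regions near gene ends with the smallest deposited p, 7 higher in the first pair and 8 in the second, for the 4 libraries (blue, first pair; red, second pair; circle and square, the libraries of a pair). Regions left of the grey line are higher in the first pair and those right of it in the second, and the pairs overlap at none, as the rule for naming them required.

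Away from gene ends, the smallest deposited p of all regions standing alone belonged to a region in Plxdc2, a plexin domain protein gene (chr2:16682651-16683750), with 113 and 253 versus 649 and 1124 by the authors' deposited table. A region in the splicing regulator gene Srek1 (chr13:103755801-103757400) had 169 and 503 versus 893 and 1454 by the authors' deposited table. In both, one first-pair library was over 2 times the other, yet the pairs did not overlap. The first-pair region with the smallest deposited p, chr10:55877251-55878300, lay 136.5 kb from the nearest gene and had 216 and 312 versus 0 and 1 by the authors' deposited table. A second first-pair region (chr4:147396051-147398500), in the zinc finger cluster near Zfp978, had 1174 and 1081 versus 440 and 447 by the authors' deposited table. In it the libraries of each pair differed little.

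Regions of the cardiac and chromatin lists near gene ends were named by list and not for pairs that lie apart. Kcnj2, which encodes the inward rectifier potassium channel of the heart, had 56 and 95 versus 0 and 26 by the authors' deposited table. Cacna2d1 had a region 209 bp from a start site (chr5:15934551-15935250), with 62 and 241 versus 80 and 31 by the authors' deposited table, so its pairs overlapped. Camk2d, the calcium- and calmodulin-dependent kinase of heart muscle, had 12 and 37 versus 73 and 51 by the authors' deposited table. Myocd, encoding myocardin, had 26 and 134 versus 201 and 96 by the authors' deposited table, and its pairs overlapped. Srf, the serum response factor gene, had 79 and 61 versus 15 and 57 by the authors' deposited table, within a region that lies in the neighbouring gene Cul9.

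Echs1, a mitochondrial enoyl-CoA hydratase gene, had 19 and 38 versus 158 and 82 by the authors' deposited table, and Etfb, an electron transfer flavoprotein subunit gene, 22 and 35 versus 55 and 168. The pairs did not overlap at either. Etfa, which encodes the partner subunit, was listed in the other direction with 53 and 94 versus 0 and 60, and its pairs overlapped in the authors' deposited table. Among H3K9 enzymes, Kdm4c had 73 and 156 versus 48 and 3 by the authors' deposited table, and Setdb1, a trimethylating enzyme, 4 and 39 versus 64 and 61. The pairs overlapped at the other 2 named of this list by the authors' deposited table, Cdyl (117 and 23 versus 47 and 18) and Kdm4d, a demethylase gene (75 and 55 versus 3 and 57). Nppa, the atrial natriuretic peptide gene, and Nppb, the brain natriuretic peptide gene, had regions 1397 and 1900 bp from their start sites, with log2 differences of 1.24 and 0.73 by the authors' deposited table.

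A region standing alone touched 10 of 919 microRNA hairpins on these chromosomes, and 8 hairpins lay whole inside one. MicroRNAs are short RNAs that repress messenger RNAs paired to their seed, bases 2 to 8. The mature sequences of 2 of these hairpins are shown, that with the best known role and that with the smallest deposited p, taken from RefSeq (GRCm38.p6) with the seed in capitals; no seed is shared among the 4.
miR-155-5p: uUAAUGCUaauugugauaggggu
miR-155-3p: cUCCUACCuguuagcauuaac
miR-6911-5p: uGGGCUGAgugggucuguggcau
miR-6911-3p: uCAAUCACacucuguccacag
Mir155, a microRNA of immune cells (hairpin chr16:84714140-84714204, plus strand), lay in a region with 39 and 58 versus 101 and 71 by the authors' deposited table (log2 0.81), and the nearest G9a region was 6950 bp away. Mir6911 (hairpin chr10:80278164-80278232, plus strand) lay in a region with 151 and 75 versus 32 and 24 by the authors' deposited table. Neither pair of values overlapped the other pair. Of the other H3K9me2 regions, those overlapping H3K27me3 only touched 20 hairpins, those overlapping G9a only 5 and those overlapping both 21. Each of these kinds has fewer regions, which are longer at the median.

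Neighbouring regions standing alone shared a direction less often at short range than at long range. Of 4529 neighbour pairs at most 500 bp apart, 40.03% were higher in the same pair, against 50.82% if only the shares of the directions set it. The same share over all H3K9me2 regions at most 500 bp apart was 40.57%, so this is no property of the regions standing alone. Pairs at most 10 kb apart had 49.67%.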

How the data were processed

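ChIP-seq values were read from the authors' deposited tables, 1 per antibody, without a header. The submitters' processing notes name BWA 0.7.10-r789, SAMtools 1.1 and the build mm10 (GRCm38); the region caller, the scaling and any input correction were not given in the sources used here. Values deposited by the authors are whole numbers per region and library, not known to be raw counts, and were not scaled further; the deposited p is the authors', as -log10. The pairs were read from the order of the 4 values.

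The regions standing alone were found by removing each region that shares at least 1 base with another table (Python 3.11.15, checked with bedtools 2.31.1). Log2 differences are of pair means with a pseudocount of 1. limma 3.58.1 (R 4.3.3) was fitted to all nuclear H3K9me2 regions and tested on simulated data. Genes and promoters came from GRCm38.p6 tables; a region belongs to a gene by its midpoint, and to a gene end within 2500 bp. The table gives no strand or exons, so exons and introns were not told apart. Promoters on chromosome 18 were not used here. Regions on X and Y (1246) and mitochondrial DNA (2) are no members; limma's fit kept X and Y. Named regions are, per direction, the 8 of smallest deposited p near ends of at most 4 genes with pairs apart and the 4 of smallest p anywhere, the 3 longest, the 3 nearest either side of the overlap rule, and up to 4 per gene list. A few that this rule or the counts would name are not reported here. Members and lists were chosen with earlier results of these data known. No interval is given, since the depth is unknown.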

Additional observations from a re-analysis of the deposited data

How the results depend on the processing

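Requiring an overlap of 0.5 of the region to exclude it left 117962 regions alone, and requiring a -log10 p of 4 in the other tables left 119100. Asking for no other region within 1000 bp left 46891, and a -log10 p of 4 in the H3K9me2 table left 48789. Under these choices the second-pair share was 44.54%, 44.08%, 43.14% and 42.91%. Windows of 5000 bp put 7.518% near gene ends, 30.94% in gene bodies and 61.54% between genes, and raised the list genes with a region near an end from 666 to 1025. Scaling all libraries to an equal median shifted log2 differences by 0.173, less than the listed differences, so it could turn no direction. The count passing limma was 0 under every alternative run, with 27 and 2 calls over the table at a pseudocount of 10 and with scaling, and 0 to 0 with each library left out in turn. Without each library in turn, median log2 differences ran from -1.22 to -1.04 and from 1.02 to 1.13. The alternatives for the gene body shares of the lists, a -log10 p of 4 in either the H3K9me2 table or the other tables, were chosen after seeing the data. With the latter, the share over all genes went from 40.81% to 51.82%. It was 81.45% for calcium handling and ion channels, 57.12% for synaptic adhesion genes (56.01% without Ctnna3, also left out after seeing the data), 53.57% for fibroblast markers, 47.78% for neurotransmitter receptors, 40% for leukocyte markers and 25% for endothelial markers. No paired analysis was possible because the columns carry no replicate number. Unknown depth and scaling, and 2 libraries per pair, limit every value.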
